A study of Mus musculus with 16 samples.

Results

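The genes described here are 41 genes of bone morphogenetic protein (BMP), transforming growth factor beta (TGF-beta) and activin signalling, the 4 Id genes among them, measured in mouse embryo heads at 3 stages. They were chosen by gene symbol, from a list made up by role in the pathway, and each was represented by its brightest probe set. All 41 were measured, among 18193 genes in all. The head samples, 1 array each, numbered 6 at E9.5 (embryonic day 9.5), 4 at E11.5 and 6 at E13.5, and the submitters describe them as biological replicates. The labels name no strain, genotype, sex or treatment, and do not say whether an array holds 1 embryo or a pool. The sample labels speak of heads and the series title of brain, and how much other tissue was kept is not stated. The E9.5 and E11.5 RNA was labelled with an Affymetrix one-cycle kit and the E13.5 RNA with Ambion MessageAmp II-Biotin Enhanced, so stage and labelling kit cannot be told apart in either comparison with E13.5.

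BMPs, TGF-betas, activins and growth differentiation factors (GDFs) are secreted dimers that bring type I and type II serine/threonine kinase receptors together. The activated receptors phosphorylate Smad proteins: Smad1 and Smad5 mainly for BMPs, Smad2 and Smad3 mainly for TGF-betas and activins. These join Smad4 and enter the nucleus, where BMP signals induce the Id genes, whose products bind E proteins and keep them from activating differentiation genes. In the embryonic head, BMPs from the dorsal midline pattern the neural tube, and BMPs and TGF-betas act in facial mesenchyme, cartilage and palate.

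Values are log2 intensities of RMA-processed arrays, on which the median of all probe sets was 32 and the lower quartile 12, or 3.58 on the log2 scale. Levels are not compared between genes, since each probe set has its own response. A gene was called where its adjusted p was under 0.05 in a limma model of all 16 arrays. Further probe sets of a gene were tested in the same model over all probe sets. Errors of differences are standard errors, and every difference is the later stage minus the earlier. The arrays fell apart by stage on PC1, the first principal component (65.3% of the variance), while on PC3 (3.17%) samples 13 and 15 of E9.5 lay away from all other arrays. Poly-A spike-ins, transcripts added during preparation, were between 7.90 and 8.50 on the E9.5 arrays, between 5.46 and 5.80 on the E11.5 arrays and between 5.25 and 5.51 on the E13.5 arrays, so a control unrelated to tissue also differed between stages. The head samples held neural and other tissue: the neural progenitor gene Sox2 averaged 11.03, 10.95 and 9.91 and the collagen gene Col1a2 8.85, 10.84 and 13.13 in stage order.

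Most of the genes changed, more of them higher at the later stage than lower. Between E11.5 and E9.5, 32 of the 41 genes were called, 19 higher and 13 lower, where 57.8% of all genes were called (31.0% higher and 26.9% lower). Between E13.5 and E11.5 the count was again 32, with 21 higher and 11 lower, against 54.9% of all genes (27.9% higher and 27.0% lower). For E13.5 against E9.5 it was 31, with 22 higher and 9 lower, against 61.8% of all genes (32.7% and 29.1%). The median log2 difference of the 41 genes was 0.122, 0.292 and 0.336 in these comparisons, beside 0.019, 0 and 0.007 for all genes. The arrays of the later and earlier stage did not overlap for 20 of the 41 genes between E11.5 and E9.5, 16 higher and 4 lower (37.7% of all genes, 19.9% higher and 17.8% lower). Between E13.5 and E11.5 this held for 27, 16 higher and 11 lower (43.0%, 22.3% and 20.7%), and between E13.5 and E9.5 for 25, 17 higher and 8 lower (44.8%, 23.9% and 20.9%). In whole heads, more cells of a type and more RNA per cell cannot be told apart. By the moderated F test 38 of the 41 differed between stages, where 75.8% of all genes did.

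Changes of at least 2-fold numbered 5 in the earlier interval and 13 in the later one. At E11.5, 5 genes were called and at least 2-fold higher than at E9.5 (6.08% of all genes were) and 0 lower (4.79%), while 13 of the 41 were called lower at an adjusted p under 0.05. At E13.5, 8 genes were at least 2-fold higher than at E11.5 (5.78%) and 5 lower (3.80%). At E13.5 against E9.5, 10 were at least 2-fold higher (9.93%) and 1 lower (7.08%). In all, 17 of the 41 genes reached 2-fold in at least 1 comparison, and the share of all genes that did so was not counted.

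**Figure D1:**
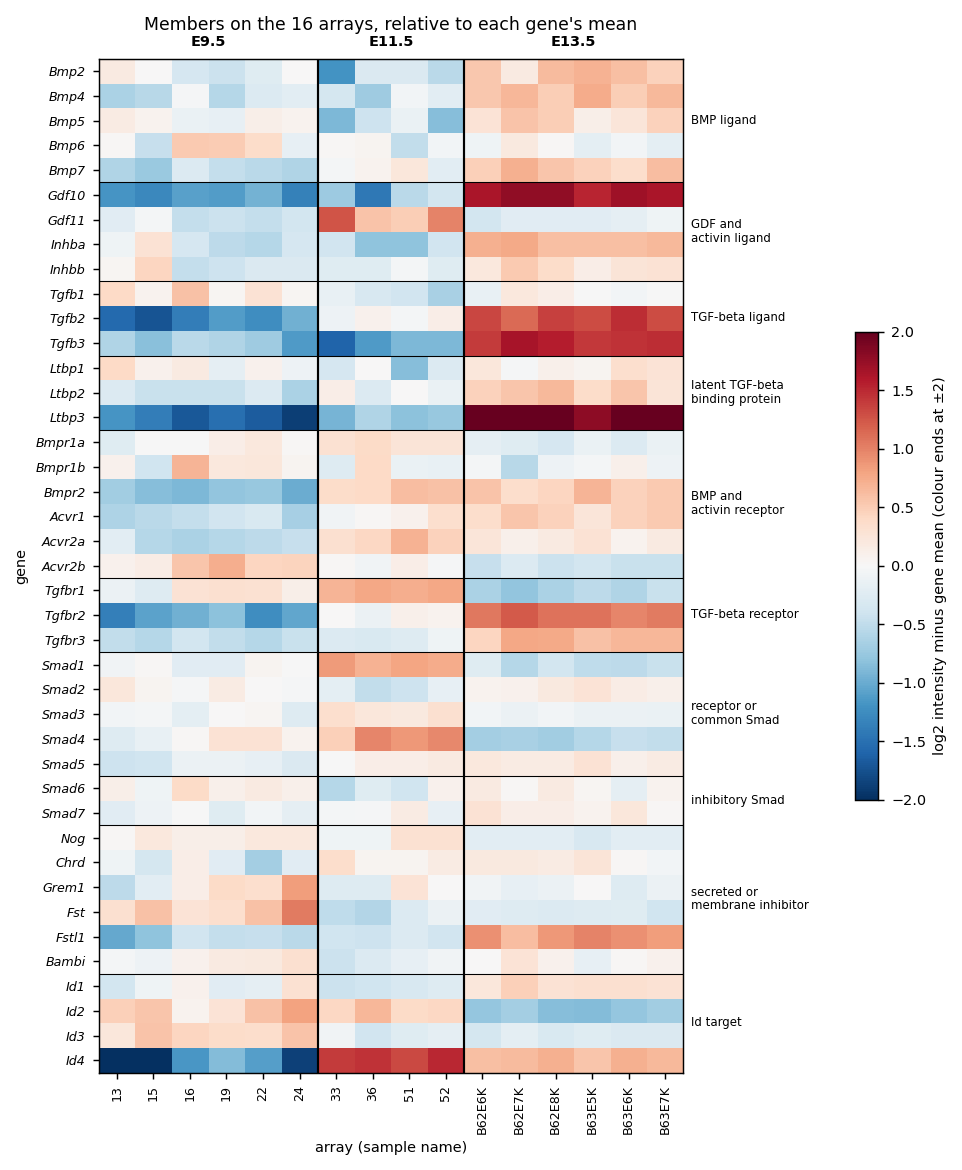
Log2 intensity of the 41 genes on the 16 arrays, as the difference from each gene's mean over all arrays (colour, ending at 2 in either direction). Columns are arrays grouped by stage and rows are genes grouped by role. Tgfb2, Tgfb3, Ltbp3, Gdf10 and Tgfbr2 were brightest on the 6 E13.5 arrays, Smad1, Smad4 and Gdf11 on the 4 E11.5 arrays, and Id4 was dimmest on the 6 E9.5 arrays.

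The order of changes over the 2 intervals split the genes. Bmp7, Gdf10, Tgfb2, Ltbp2, Ltbp3, Acvr1, Tgfbr2 and Tgfbr3 rose in both (8 genes). Another 8, Gdf11, Bmpr1a, Acvr2a, Tgfbr1, Smad1, Smad3, Smad4 and Id4, rose at E11.5 and fell at E13.5. The opposite course, lower at E11.5 and higher again at E13.5, was that of 10 genes: Bmp2, Bmp5, Inhba, Tgfb1, Tgfb3, Ltbp1, Smad2, Smad6, Bambi and Id1. Acvr2b alone fell in both, and Bmp6, Bmpr1b, Smad7 and Grem1 were called in neither. Bmpr2, Smad5 and Chrd rose at E11.5 only, and Fst and Id3 fell at E11.5 only. Bmp4, Inhbb and Fstl1 rose at E13.5 only, and Nog and Id2 fell at E13.5 only. How many of all genes took each course was not counted. Since 57.8% and 54.9% of all genes were called in the 2 intervals, the counts are not read as particular to the 41 genes. These courses are those of the brightest probe sets, and several change with the probe set, as given for each gene.

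**Figure D2:**
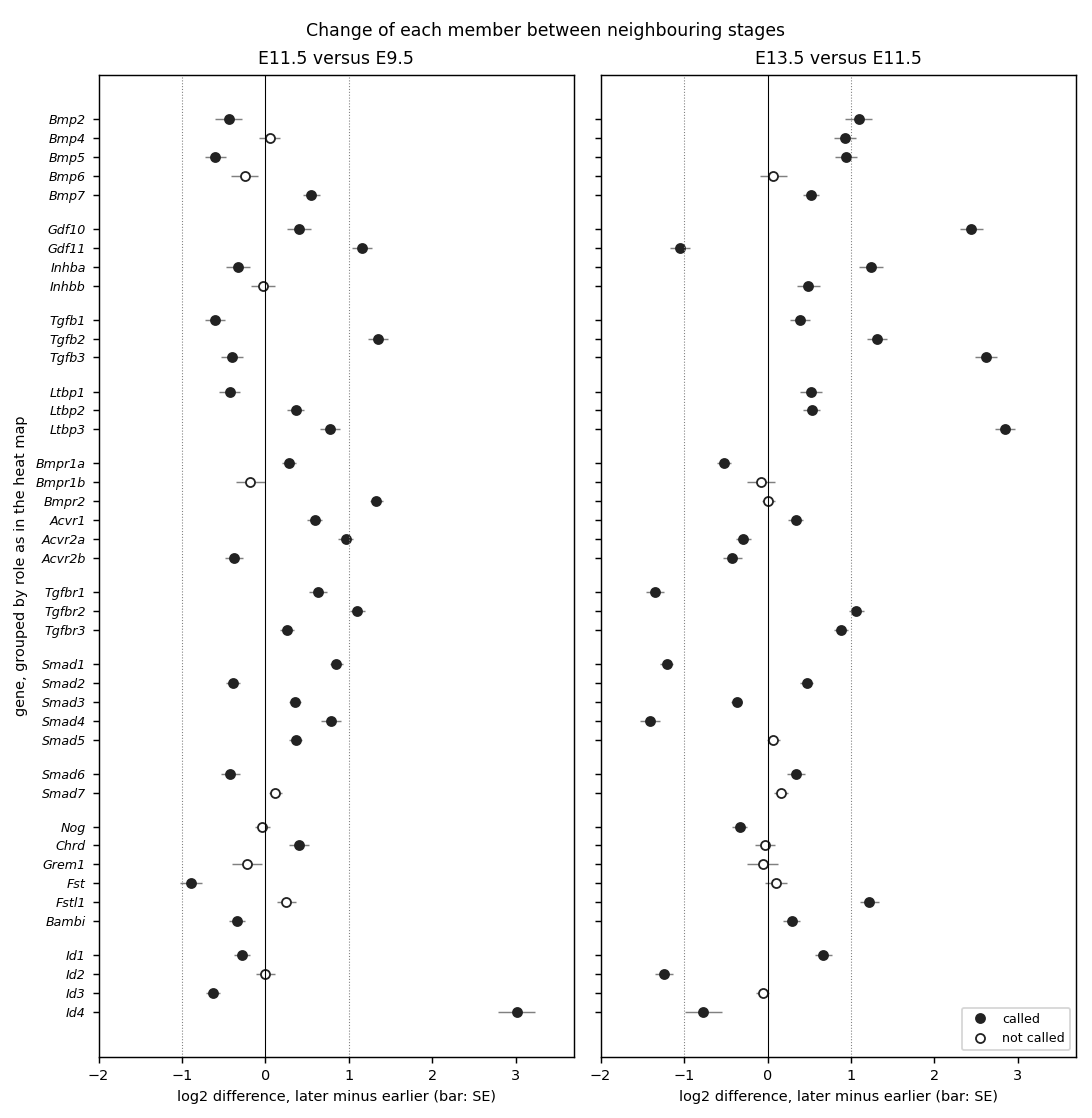
Log2 difference between neighbouring stages for each of the 41 genes (points, with standard errors as bars), later minus earlier stage, with genes grouped by role down the page. Filled points passed an adjusted p of 0.05, and dotted lines mark a 2-fold change. At E11.5 Id4 stands at 3.01, past every other gene shown, and at E13.5 the ligands lie mostly right of 0 and Tgfbr1, Smad1, Smad4, Gdf11 and Id2 left of -1.

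Id1, Id2, Id3 and Id4 encode helix-loop-helix proteins without a DNA-binding region. They are read here as the response end of BMP signalling, and the promoters of Id2 and Id4 are shown because these genes changed at least 2-fold, that of Id3 because it did not. The BMP-responsive region of mouse Id1 is known to hold the GC-rich Smad site GGCGCC, which reads the same on both strands, and it is in capitals in the 250 bases before each start, 5′ to 3′ on the gene's strand (RefSeq, GRCm38.p6). Id2 lies at chr12:25096093-25096342 (minus strand), Id3 at chr4:136143572-136143821 (plus) and Id4 at chr13:48260866-48261115 (plus).
Id2: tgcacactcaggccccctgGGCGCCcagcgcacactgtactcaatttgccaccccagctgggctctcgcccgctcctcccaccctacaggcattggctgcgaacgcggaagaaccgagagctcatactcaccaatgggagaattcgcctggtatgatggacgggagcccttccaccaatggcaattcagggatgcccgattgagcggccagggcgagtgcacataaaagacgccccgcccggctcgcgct
Id3: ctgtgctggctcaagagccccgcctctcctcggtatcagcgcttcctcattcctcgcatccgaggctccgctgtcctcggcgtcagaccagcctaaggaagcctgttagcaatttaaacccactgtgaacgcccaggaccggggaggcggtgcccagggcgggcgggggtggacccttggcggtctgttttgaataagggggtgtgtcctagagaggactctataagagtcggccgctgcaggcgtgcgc
Id4: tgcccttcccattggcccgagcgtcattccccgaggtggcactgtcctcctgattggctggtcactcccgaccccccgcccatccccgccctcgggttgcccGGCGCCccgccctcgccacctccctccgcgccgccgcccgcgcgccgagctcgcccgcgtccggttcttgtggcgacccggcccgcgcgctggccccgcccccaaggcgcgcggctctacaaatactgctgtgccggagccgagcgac
The site begins 231 bases before the start of Id2 and 148 bases before that of Id4, and these letters are not in the Id3 window. Of 36 promoters listed for 30 of the 41 genes, 8 held GGCGCC (those of Bmpr1a, Bmpr2, Chrd, Grem1, Id2, Id4, Smad5 and Tgfbr1), against 9.59% of 32851 promoters in all. The Smad-binding letters CAGACA, searched on both strands, were in 5 of the 36 (those of Bmp5, Bmpr1b, Ltbp1, Tgfb2 and Tgfbr1), against 17.1% of all. A match is a description of the letters and not a site shown to be used.

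Id4 had the greatest change of the 41 genes at E11.5. Its log2 intensity was 8.13 to 9.72 (median 9.07) on the E9.5 arrays, 11.90, 11.98, 12.03 and 12.09 on the E11.5 arrays and 11.14 to 11.30 (median 11.23) on the E13.5 arrays. The 3 stages did not overlap, and the E9.5 arrays were widely spread, with samples 13 and 15 lowest at 8.13 and 8.47. Id4 rose by 3.01 ± 0.22 at E11.5 (8.06-fold, adjusted p = 4.1e-10) and was lower at E13.5 than at E11.5 (-0.77 ± 0.22, adjusted p = 0.00524). Its other probe sets rose by 2.28 and 3.06 at E11.5, both called, but at -0.01 and -0.14 were not called for E13.5 against E11.5. The fall of Id4 after E11.5 was thus seen on 1 of 3 probe sets, and its rise before E11.5 on all 3.

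Id2 was at 10.14 to 10.88 (median 10.59) at E9.5, 10.45, 10.48, 10.48 and 10.74 at E11.5 and 9.20 to 9.39 (median 9.30) at E13.5. Every E13.5 array was below every earlier one, and the 2 earlier stages overlapped. The difference was -1.24 ± 0.11 for E13.5 minus E11.5 (2.36-fold lower, adjusted p = 1.1e-08). The next brightest Id2 probe set went the other way, at 1.03 for E13.5 minus E11.5 and -0.57 for E11.5 minus E9.5, both called, so no direction is settled for Id2. The dimmest one was not called for E13.5 minus E11.5 (-0.04) and fell at E11.5 (-1.0).

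Id3 and Id1, each with 1 probe set, were lower at E11.5. Id3 was at 10.46 to 10.81 (median 10.64) at E9.5, 9.86, 10.00, 10.06 and 10.16 at E11.5 and 9.88 to 10.04 (median 9.95) at E13.5. All E9.5 arrays exceeded the rest, and the later stages overlapped. Id3 fell by 0.63 at E11.5 (SE 0.08, adjusted p = 1.5e-06) and was not called between E13.5 and E11.5 (-0.06 ± 0.08). Id1 was at 8.59 to 9.26 (median 8.82) at E9.5, 8.52, 8.55, 8.64 and 8.70 at E11.5 and 9.18 to 9.43 (median 9.25) at E13.5. Its highest level was thus at E13.5, above all E11.5 arrays (0.67 ± 0.10, adjusted p = 1.6e-05), while E9.5 overlapped both other stages. The lower Id1 level at E11.5 (-0.28 ± 0.10, adjusted p = 0.0282) was no longer called without E9.5 sample 16 (-0.25, adjusted p = 0.0601) or 24 (-0.20, 0.0635), or without E11.5 sample 33 (-0.25, 0.0748) or 36 (-0.26, 0.0647).

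**Figure D3:**
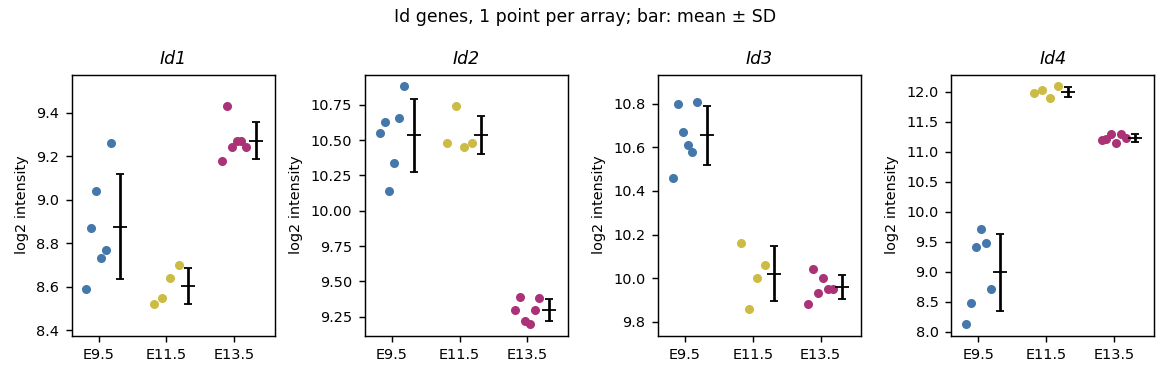
Log2 intensity of Id1, Id2, Id3 and Id4 by stage, each point 1 array (6 at E9.5, 4 at E11.5, 6 at E13.5) and the bar beside them the mean ± SD. The panels have their own axes. Id4 stands near 12 on the 4 E11.5 arrays and between 8.13 and 9.72 on the 6 E9.5 arrays, and Id2, on its brightest probe set, is between 9.20 and 9.39 on the 6 E13.5 arrays.

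E proteins, the partners that Id proteins hold back, moved as follows on their brightest probe sets. Tcf4 rose by 1.24 ± 0.10 at E11.5 (adjusted p = 2.6e-09) and was not called between E13.5 and E11.5 (0.23 ± 0.10). Tcf12 rose by 0.76 ± 0.07 at E11.5 and fell at E13.5 (-0.94 ± 0.07), a course that Id4 had on its brightest probe set alone. Tcf3 was called only for E13.5 against E11.5, at -0.30 ± 0.11 (adjusted p = 0.027).

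Most BMP ligands were higher at E13.5 than at E11.5 on their brightest probe sets. Of the 5, 4 rose at E13.5 over E11.5 and 1 was not called. At E11.5, 1 had risen over E9.5, 2 had fallen and 2 were not called. Of all genes, 27.9% rose and 27.0% fell at E13.5, and 31.0% rose and 26.9% fell at E11.5. Bmp4, a dorsal and epidermal BMP of the early embryo, was at 6.46 to 7.07 (median 6.68) at E9.5, 6.39, 6.74, 6.88 and 7.04 at E11.5 and 7.58 to 7.84 (median 7.69) at E13.5. Its E13.5 arrays lay above all others, and it was 0.93 ± 0.13 higher than at E11.5 (adjusted p = 2.9e-06). The closely related Bmp2 was at 4.86 to 5.46 (median 5.16), 4.09, 4.75, 5.0 and 5.0 and 5.46 to 5.98 (median 5.86) in stage order. It rose by 1.09 ± 0.16 at E13.5 (2.13-fold, adjusted p = 5.9e-06), with no overlap with E11.5, and its lowest E13.5 array equalled the highest E9.5 one at 5.46. Its lower level at E11.5 (-0.44 ± 0.16) rested in part on E11.5 sample 33, at 4.09, without which it was -0.23 (adjusted p = 0.146). It was -0.32 without E9.5 samples 13 and 15 together (adjusted p = 0.105).

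Bmp7, a BMP with roles in eye, kidney and skeleton, was at 5.91 to 6.38 (median 6.08) at E9.5, 6.43, 6.61, 6.71 and 6.87 at E11.5 and 6.99 to 7.36 (median 7.16) at E13.5. The stages rose in order without overlap, by 0.55 ± 0.10 and 0.52 ± 0.10 (adjusted p = 9.6e-05 and 1.9e-04). Both other Bmp7 probe sets fell at E11.5 (-0.86 and -0.37), and neither was called for E13.5 against E11.5 (-0.14 and 0.14). The brighter of them was lower at E13.5 than at E9.5 (-0.99), so the direction depends on the probe set. Bmp5, which acts in skeletal and craniofacial growth, fell at E11.5 (-0.60 ± 0.13, adjusted p = 5.8e-04) and rose at E13.5 (0.94 ± 0.13, adjusted p = 4.4e-06). Its dimmest probe set did both too, at -0.42 and 0.57, and the other was called in neither. Bmp6 was not called in either interval (-0.25 ± 0.16 and 0.07 ± 0.16). Without E9.5 sample 15 it was called lower at E11.5 (-0.37, adjusted p = 0.033).

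Gdf10 and Gdf11 were both called higher at E11.5 and moved in opposite directions at E13.5. Gdf10, also called Bmp3b, which is expressed in skeleton and in glia of the brain, was at 5.81 to 6.21 (median 6.01) at E9.5, 5.73, 6.43, 6.63 and 6.79 at E11.5 and 8.68 to 8.94 (median 8.83) at E13.5. All E13.5 arrays were far above the rest, by 2.44 ± 0.14 over E11.5 (5.44-fold, adjusted p = 2.2e-11). The smaller rise at E11.5 (0.40 ± 0.14, adjusted p = 0.0234) was not called without E11.5 sample 51 (0.32, adjusted p = 0.0901) or 52 (0.26, 0.126) or E9.5 sample 24 (0.36, 0.0506), and was 0.62 without E11.5 sample 36, which was lowest. Gdf11, which limits the number of neurons formed in several sensory tissues, was at 4.70 to 5.13 (median 4.78) at E9.5, 5.67, 5.75, 6.17 and 6.43 at E11.5 and 4.81 to 5.09 (median 4.95) at E13.5. The 4 E11.5 arrays were above all others. Gdf11 rose by 1.16 ± 0.12 (2.24-fold, adjusted p = 1.1e-07) and then fell to its E9.5 range (-1.05 ± 0.12, adjusted p = 4.9e-07). Both genes had 1 probe set.

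Inhba and Inhbb encode the beta subunits of activins A and B. Inhba was at 4.81 to 5.67 (median 5.04) at E9.5, 4.58, 4.58, 5.0 and 5.0 at E11.5 and 5.98 to 6.13 (median 6.00) at E13.5. The E13.5 arrays were above all earlier ones (1.24 ± 0.14 over E11.5, 2.36-fold, adjusted p = 1.7e-07), and its dimmer probe set was not called. Its difference between E11.5 and E9.5 (-0.33 ± 0.14, adjusted p = 0.0462) lost its call without any 1 of 12 of the 16 arrays, with an adjusted p up to 0.149. Inhbb rose by 0.49 ± 0.14 at E13.5 over E11.5 (adjusted p = 0.00482), and its dimmer probe set by 1.46. At E11.5 the brighter was not called (-0.03 ± 0.14) and the dimmer rose (0.33).

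The TGF-beta ligands are made as latent complexes, and mice lacking Tgfb3 have a cleft palate, while those lacking Tgfb2 have craniofacial and heart defects. Tgfb2 was at 4.52 to 5.29 (median 4.93) at E9.5, 6.15, 6.21, 6.34 and 6.38 at E11.5 and 7.39 to 7.73 (median 7.57) at E13.5. No array of a later stage overlapped an earlier one. Tgfb2 rose by 1.35 ± 0.12 at E11.5 (2.55-fold, adjusted p = 6.1e-09) and by 1.31 ± 0.12 at E13.5 (2.47-fold, adjusted p = 1.1e-08). Its 3 other probe sets rose in both intervals as well, by 0.83 to 2.0 and by 0.53 to 1.88, all called.

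Tgfb3 rose in the later interval only. It was at 4.17 to 4.75 (median 4.64) at E9.5, 3.7, 4.17, 4.39 and 4.39 at E11.5 and 6.70 to 6.94 (median 6.75) at E13.5. Its E13.5 arrays were above all others, by 2.62 ± 0.13 over E11.5 (6.16-fold, adjusted p = 1.3e-12). The lower level at E11.5 than at E9.5 (-0.40 ± 0.13, adjusted p = 0.0115) was no longer called without E11.5 sample 33 (-0.24, adjusted p = 0.0761). Tgfb1, made by blood, immune and endothelial cells among others, was at 5.0 to 5.55 (median 5.15) at E9.5, 4.32, 4.58, 4.64 and 4.81 at E11.5 and 4.81 to 5.17 (median 4.95) at E13.5. It fell by 0.61 at E11.5 (SE 0.12, adjusted p = 1.3e-04) without overlap with E9.5 and rose by 0.39 ± 0.12 at E13.5, where the lowest array equalled the highest E11.5 one at 4.81. Its dimmer probe set was called in neither interval.

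Latent TGF-beta binding proteins tie the latent complex to the matrix. Ltbp3 had the greatest rise of the 41 genes at E13.5. It was at 5.46 to 6.15 (median 5.75) at E9.5, 6.41, 6.51, 6.57 and 6.74 at E11.5 and 9.13 to 9.60 (median 9.42) at E13.5, with no overlap between stages. Ltbp3 rose by 2.85 ± 0.12 at E13.5 over E11.5 (7.2-fold, adjusted p = 9.8e-14), and its 3 other probe sets rose by 0.94 to 2.91, all called. At E11.5 it rose by 0.77 ± 0.12 on the brightest probe set, while the others were at 0.06, -0.04 and -0.26, only the last of them called. Ltbp1 fell at E11.5 (-0.43 ± 0.13, adjusted p = 0.00911, and without E11.5 sample 51 -0.27, 0.0602) and rose at E13.5 (0.52 ± 0.13). Of its other probe sets, the brighter fell at E11.5 (-0.3) and was not called at E13.5 (0.21). The dimmest was not called at E11.5 (-0.07) and rose at E13.5 (0.41). Ltbp2 rose in both (0.36 ± 0.10 and 0.53 ± 0.10) but was at 2.81 to 3.17 (median 3.00) at E9.5, below the lower quartile of intensity, where whole-number values make coarse steps.

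**Figure D4:**
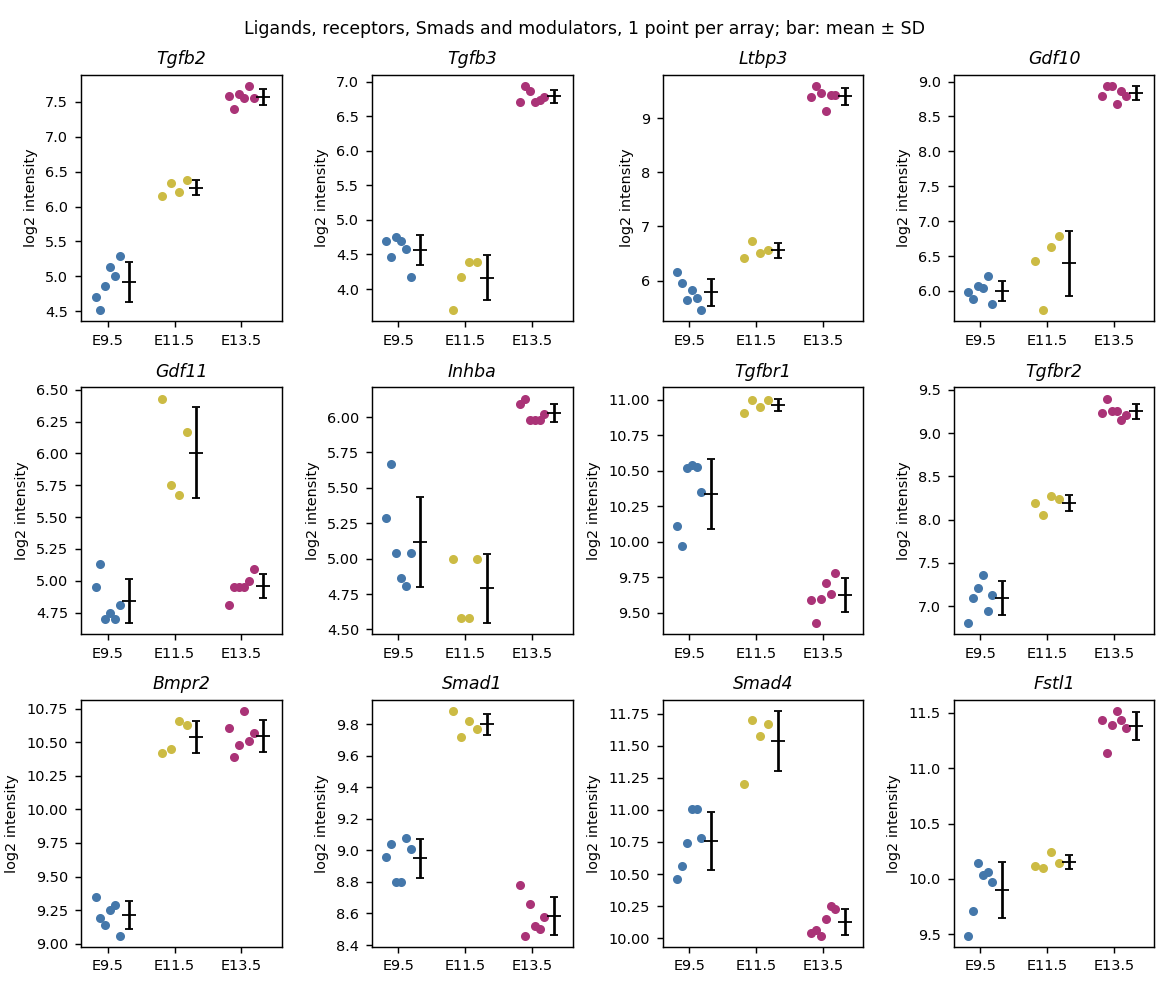
Log2 intensity of 12 ligands, receptors, Smads and modulators by stage, each point 1 array and the bar beside them the mean ± SD (n = 6, 4 and 6). The panels have their own axes. On the brightest probe sets, shown here, Tgfb2 and Tgfbr2 climb through both intervals. Tgfb3, Gdf10, Ltbp3, Inhba and Fstl1 stand highest at E13.5, and Gdf11, Tgfbr1, Smad1 and Smad4 are highest at E11.5.

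The TGF-beta receptors did not all move one way at E13.5. Tgfbr1 is the type I receptor, Tgfbr2 the type II receptor and Tgfbr3 (betaglycan) a co-receptor that presents TGF-beta2. All 3 rose at E11.5, where 31.0% of all genes did. Tgfbr2 was at 6.81 to 7.36 (median 7.11) at E9.5, 8.06, 8.19, 8.24 and 8.27 at E11.5 and 9.15 to 9.40 (median 9.25) at E13.5, rising without overlap by 1.10 ± 0.09 (2.14-fold, adjusted p = 4.6e-09) and 1.06 ± 0.09 (2.09-fold, adjusted p = 7.6e-09). Tgfbr3 was at 7.38 to 7.58 (median 7.45), 7.65, 7.67, 7.69 and 7.86 and 8.38 to 8.72 (median 8.62) in stage order, and rose by 0.26 ± 0.08 and 0.88 ± 0.08 without overlap. For both genes the next probe set, much dimmer at a mean of 4.71 and 4.75, fell at E13.5 (-0.42 and -0.31, both called).

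Tgfbr1 instead fell at E13.5. It was at 9.97 to 10.54 (median 10.44) at E9.5, 10.91, 10.95, 11 and 11 at E11.5 and 9.43 to 9.78 (median 9.62) at E13.5. The 3 stages did not overlap, E11.5 being highest and E13.5 lowest. The differences were 0.63 ± 0.11 at E11.5 (adjusted p = 4.2e-05) and -1.35 ± 0.11 at E13.5 (2.54-fold lower, adjusted p = 1.8e-09). Its 2 other probe sets rose by 0.43 and 1.31 at E11.5 and fell by far more at E13.5, at -3.42 and -3.56, all called. The sign of the Tgfbr1 changes was thus the same on 3 of 3 probe sets, and the size was not.

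Among the BMP and activin receptors, on their brightest probe sets, 4 of 6 rose at E11.5, 1 fell and 1 was not called. At E13.5, 1 rose, 3 fell and 2 were not called. Of all genes, 31.0% rose and 26.9% fell at E11.5, and 27.9% rose and 27.0% fell at E13.5. Bmpr2, the BMP type II receptor, was at 9.06 to 9.35 (median 9.22) at E9.5, 10.42, 10.45, 10.63 and 10.66 at E11.5 and 10.39 to 10.73 (median 10.54) at E13.5. Both later stages were above E9.5 and overlapped each other. It rose by 1.33 ± 0.08 at E11.5 (2.51-fold, adjusted p = 6.9e-11), and its 2 dimmer probe sets rose too (0.52 and 0.36). For E13.5 against E11.5 Bmpr2 was not called (0.01 ± 0.08), and 1 of the dimmer probe sets fell (-0.43).

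The type I receptor Acvr1 (Alk2) rose in both intervals, by 0.59 ± 0.09 and 0.34 ± 0.09 (adjusted p = 2.0e-05 and 0.00493). Of its other probe sets, the brighter was called at E13.5 only (0.11 and 0.58) and the dimmer at E11.5 only (0.34 and 0.04). The activin type II receptor Acvr2a rose by 0.96 ± 0.09 at E11.5 (adjusted p = 2.1e-08) and was at -0.29 ± 0.09 at E13.5 (adjusted p = 0.0107), a call lost without E11.5 sample 51 (-0.21, adjusted p = 0.0564) and with the sample-title prefix of the E13.5 samples as a random block (adjusted p = 0.0613). Its other probe set was level at E11.5 (-0.02, not called) and fell at E13.5 (-1.31). Acvr2b fell in both (-0.38 ± 0.11 and -0.42 ± 0.11), but of its other probe sets one rose at E13.5 (0.51) and the dimmest rose at E11.5 (0.81) and fell at E13.5 (-2.10). The BMP type I receptor Bmpr1a rose by 0.28 ± 0.08 at E11.5 and fell at E13.5 (-0.52 ± 0.08, adjusted p = 2.5e-05). Of its 5 other probe sets, 4 fell at E13.5, but at E11.5 2 fell (-0.62 and -0.53) and 0 rose. Bmpr1b was not called in either interval on its brightest probe set. Its next one, near the lower quartile at a mean of 3.96, rose at E11.5 (1.10) and fell at E13.5 (-1.65), and the dimmest fell at E13.5 (-0.46).

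Smad4, the partner shared by all branches, rose and fell with Smad1, the BMP-activated Smad. Smad4 was at 10.46 to 11.01 (median 10.76) at E9.5, 11.20, 11.58, 11.67 and 11.70 at E11.5 and 10.02 to 10.25 (median 10.11) at E13.5, with no overlap between stages. The differences were 0.78 ± 0.12 (adjusted p = 8.1e-06) and -1.41 ± 0.12 (2.66-fold lower, adjusted p = 2.6e-09). Of its 2 other probe sets, also bright, one moved the same way (0.41 and -0.70) and one the opposite way (-0.62 and 0.47), all called. Smad1 was at 8.80 to 9.08 (median 8.98) at E9.5, 9.72, 9.77, 9.82 and 9.88 at E11.5 and 8.46 to 8.78 (median 8.55) at E13.5. It rose by 0.85 ± 0.08 at E11.5 and was 2.32-fold lower at E13.5 than at E11.5 (-1.21 ± 0.08, adjusted p = 2.0e-10). Its next probe set, nearly as bright, rose in both intervals (0.56 and 0.57), and the dimmest fell at E11.5 (-0.96) and was not called at E13.5 (0.13). The fall of Smad1 at E13.5 thus holds for its brightest probe set alone.

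The other receptor-activated Smads moved less. Smad3 rose by 0.35 ± 0.07 at E11.5 and fell at E13.5 (-0.37 ± 0.07), and both dimmer probe sets fell at E13.5 (-1.64 and -1.33). At E11.5 these were at -0.36 and -0.25, not called, and the mean of all Smad3 probe sets was not called either (-0.09). Smad2 had the reverse course (-0.39 ± 0.08 and 0.47 ± 0.08), and its other probe set ran against it in both intervals (0.79 and -0.33, both called). Smad5 rose by 0.36 ± 0.08 at E11.5, as did its other probe sets (0.94 and 1.15), and was not called at E13.5 (0.07 ± 0.08), where one of the others was at -2.35.

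Smad6 and Smad7 are inhibitory Smads that are themselves induced by the pathway. Smad6 was at 6.60 to 7.07 (median 6.80) at E9.5, 6.11, 6.29, 6.44 and 6.77 at E11.5 and 6.51 to 6.87 (median 6.74) at E13.5, the stages overlapping. It was called at -0.42 ± 0.11 for E11.5 minus E9.5 (adjusted p = 0.00344) and at 0.34 ± 0.11 for E13.5 minus E11.5. The second call was lost without E11.5 sample 33 (0.24, adjusted p = 0.0824) and with the sample-title prefix as a random block (adjusted p = 0.0702). Smad7 was called on its brightest probe set for E13.5 against E9.5 alone (0.28 ± 0.07, adjusted p = 0.00231). Its other probe set, at a mean of 3.88, rose at E11.5 (1.06), fell at E13.5 (-1.42) and was lower at E13.5 than at E9.5 (-0.36), all called. Without E11.5 sample 51 the brightest was also called for E13.5 against E11.5 (0.22, adjusted p = 0.0332).

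The inhibitors showed 1 large rise. Fstl1, a secreted follistatin-like glycoprotein of mesenchyme, was at 9.49 to 10.14 (median 10.01) at E9.5, 10.10, 10.12, 10.14 and 10.24 at E11.5 and 11.14 to 11.51 (median 11.41) at E13.5. The E13.5 arrays were above the rest, and the earlier stages overlapped. It rose by 1.22 ± 0.11 at E13.5 (2.33-fold, adjusted p = 1.1e-08), and its other probe set by 1.98. For E11.5 against E9.5 it was not called (0.25 ± 0.11, adjusted p = 0.0607) but passed without E9.5 sample 16, 19 or 22 (adjusted p 0.0283 to 0.0493).

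Fst (follistatin), which binds activins, was lower after E9.5. Its levels were 7.52 to 8.29 (median 7.71) at E9.5, 6.66, 6.75, 6.97 and 7.14 at E11.5 and 6.85 to 7.03 (median 7.0) at E13.5. The E9.5 arrays were above all others, and the later stages overlapped. It fell by 0.89 at E11.5 (SE 0.13, adjusted p = 4.2e-06), and its other probe set fell too (-0.87). Nog (noggin) and Chrd (chordin) bind BMPs outside the cell. Nog was at 3.81 to 4.00 (median 3.95) at E9.5, 3.7, 3.7, 4.09 and 4.09 at E11.5 and 3.46 to 3.58 (median 3.58) at E13.5, close to the lower quartile of the arrays, and its fall at E13.5 (-0.33 ± 0.09, adjusted p = 0.00318) spans few whole-number steps. Chrd rose by 0.40 ± 0.12 at E11.5 (adjusted p = 0.00701).

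Grem1 (gremlin), another secreted BMP antagonist, was called in no comparison (-0.22 ± 0.18 and -0.06 ± 0.18). Its E9.5 arrays were spread from 4.64 to 6.00, and without samples 13 and 15, at 4.64 and 4.95, it was called lower at E11.5 (-0.48, adjusted p = 0.00531). Bambi, a receptor-like protein that lacks the kinase, fell at E11.5 (-0.34 ± 0.10, adjusted p = 0.00601) and rose at E13.5 (0.29 ± 0.10), the second call lost without E11.5 sample 33 (0.23, adjusted p = 0.0777) and with the prefix as a block (adjusted p = 0.0926). In all, at E11.5 1 of the 6 inhibitors rose, 2 fell and 3 were not called, and at E13.5 2 rose, 1 fell and 3 were not called, where 31.0% and 27.9% of all genes rose and 26.9% and 27.0% fell.

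Probe sets of the same gene often disagreed. Of the 32 genes called at E11.5 against E9.5, 22 had other probe sets. For 7 of these every other probe set was called in the same direction (Tgfb2, Bmpr2, Tgfbr1, Tgfbr3, Smad5, Fst and Id4), and for another 7 at least 1 was called in the opposite one (Bmp7, Ltbp3, Bmpr1a, Acvr2b, Smad1, Smad2 and Smad4). For E13.5 against E11.5, every other probe set moved the same way for 7 of 22 (Inhbb, Tgfb2, Ltbp3, Acvr2a, Tgfbr1, Smad3 and Fstl1), and at least 1 was called in the opposite direction for 7 (Acvr2b, Tgfbr2, Tgfbr3, Smad1, Smad2, Smad4 and Id2). Where a probe set lies on the transcript was not analysed here, and the part of transcript variants, probe position and labelling kit in these differences was not tested.

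**Figure D5:**
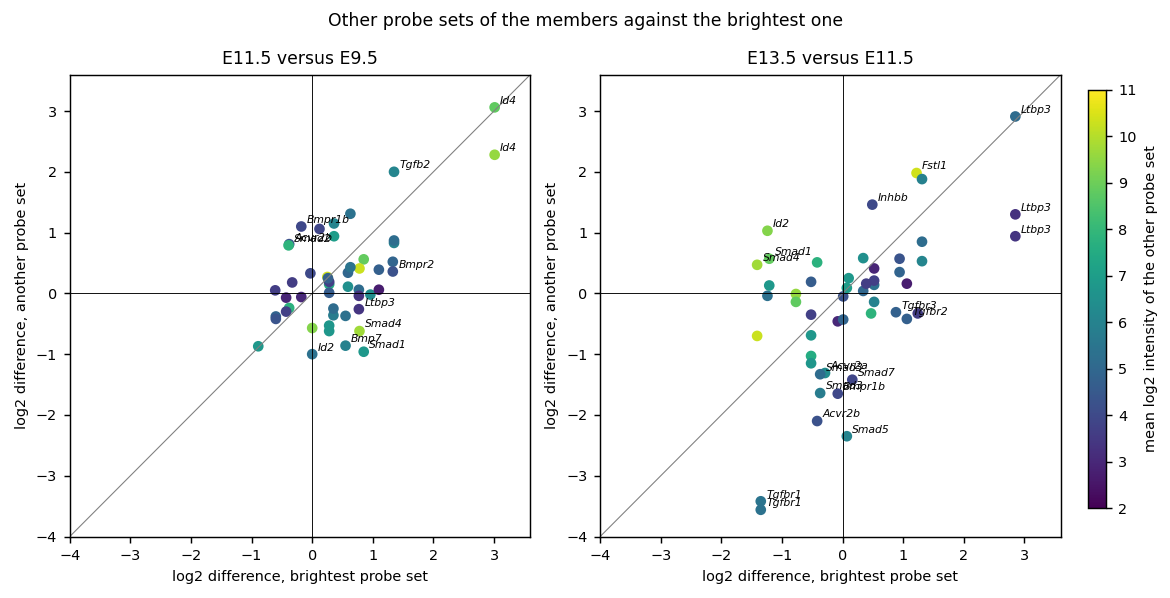
Log2 difference of each further probe set of the 41 genes (vertical) against that of the gene's brightest probe set (horizontal), later minus earlier stage, coloured by the mean log2 intensity of the further probe set, with a line of equality. Points in the upper left and lower right went in the opposite direction. Id4 and Ltbp3 lie at the upper right, Tgfbr1 at the lower left at -3.42 and -3.56 against -1.35, and Id2 at E13.5 in the upper left.

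Other genes of the pathway, taken from lists by role, were measured for 68 of 79 symbols. Each was represented by its brightest probe set, and further probe sets of these genes were not compared. At E11.5, 28 rose and 10 fell against E9.5, and at E13.5, 16 rose and 24 fell against E11.5, with median differences of 0.16 and -0.05. Of all genes, 31.0% rose and 26.9% fell at E11.5, and 27.9% rose and 27.0% fell at E13.5. Of 8 response genes other than the Id genes, 4 rose and 1 fell at E11.5, and 3 rose and 5 fell at E13.5. Among these Pmepa1, a TGF-beta-induced gene, rose by 1.81 ± 0.12 at E11.5 (adjusted p = 1.7e-10) and by 0.59 ± 0.12 at E13.5. Msx1, a BMP-responsive homeobox gene, rose by 1.08 ± 0.08 at E11.5 and fell at E13.5 (-0.41 ± 0.08), and Msx3, of the dorsal neural tube, fell at E13.5 (-1.53 ± 0.12, adjusted p = 9.8e-10). Ccn2, a TGF-beta-responsive matrix gene, fell at E11.5 (-1.48 ± 0.12) and rose at E13.5 (1.37 ± 0.12).

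Of 14 intracellular regulators, 5 rose and 2 fell at E11.5, where 31.0% of all genes rose and 26.9% fell. At E13.5, 3 rose and 7 fell, where 27.9% of all genes rose and 27.0% fell. The Smad repressor gene Skil rose at E11.5 (1.60 ± 0.08) and fell at E13.5 (-1.13 ± 0.08). Smad4 did so on its brightest probe set and 1 of its 2 others, while the remaining one moved the opposite way. Tgif1 and Tgif2, further repressors of Smads, fell at E13.5 (-0.91 ± 0.11 and -1.03 ± 0.09). Of 18 other secreted and matrix modulators, 7 rose and 5 fell at E11.5, and 5 rose and 5 fell at E13.5. The shares of all genes are those just given, here and for the lists below. Among the modulators, Wfikkn1, which binds GDF11 and myostatin, fell at E11.5 by 2.36 (SE 0.11, adjusted p = 7.8e-13). Sostdc1, an extracellular BMP antagonist, rose by 1.72 ± 0.13 at E13.5, and Bmper, a BMP-binding protein, by 1.41 ± 0.16. Of 9 other receptors and co-receptors, 4 rose and 2 fell at E11.5, and 2 rose and 3 fell at E13.5. Among these the BMP co-receptor gene Rgmb rose by 1.93 ± 0.11 at E11.5 (adjusted p = 1.3e-11). Of 16 genes listed as other ligands, 6 rose and 0 fell at E11.5, and 3 rose and 2 fell at E13.5. Among these Inha, the inhibin alpha subunit, rose by 1.71 ± 0.11 at E13.5. Bmp1, a protease that cleaves chordin, rose in both intervals (0.99 ± 0.08 and 0.54 ± 0.08).

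Markers of other tissues moved with these changes. The summed intensity of 9 connective tissue and facial mesenchyme genes was 3418 to 4546 at E9.5, 7846 to 8460 at E11.5 and 24378 to 27267 at E13.5, and 8 of the 9 rose in each interval. Tgfb2 had the same order over the stages on all its probe sets. So did Bmp7, Gdf10, Ltbp2, Ltbp3, Acvr1, Tgfbr2 and Tgfbr3 on their brightest probe sets, and the summed neuronal genes given below. For 6 cartilage genes the sum was 1347 to 2028, 1908 to 2195 and 5525 to 6788 in stage order, with 5 of 6 genes higher at E13.5 than at E11.5. For 6 skeletal muscle genes it was 116 to 163, 128 to 144 and 4650 to 6528, with all 6 higher at E13.5. Ltbp3, Tgfb3, Gdf10, Inhba and Fstl1 rose over the same interval as the cartilage and muscle genes, and the part of these tissues in their rise was not tested.

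Neural progenitor markers had another order. The sum of 5 neural progenitor genes was 3749 to 4264 at E9.5, 5450 to 6221 at E11.5 and 2297 to 2545 at E13.5. It was highest at E11.5, like the brightest probe sets of Smad1, Smad4, Tgfbr1 and Gdf11. Of the 5 genes, 3 rose and 1 fell at E11.5, and all 5 fell at E13.5. That of 5 neuronal genes was 372 to 995, 4843 to 5344 and 8513 to 9239. Id4 was lowest at E9.5, as were the neuronal, connective tissue and macrophage sums. The neuronal sum rose further at E13.5, and Id4 did not. For 5 roof plate and dorsal midline genes, a source of BMPs, the sum was 525 to 637, 634 to 763 and 506 to 547. At E11.5, 1 of the 5 rose (Msx1) and 3 fell (Wnt3a, Rspo1 and Wnt1). At E13.5, 4 of 5 fell, while 4 of 5 BMP ligands rose on their brightest probe sets. Of all genes, 27.9% rose and 27.0% fell at E13.5. Surface ectoderm genes (6 measured) were at 881 to 1537, 518 to 599 and 939 to 992, and endothelial genes (6) at 499 to 708, 499 to 611 and 713 to 771. All 6 surface ectoderm genes rose at E13.5, after 3 fell and 0 rose at E11.5. Of the endothelial genes, 1 rose and 1 fell at E11.5, and 3 rose and 1 fell at E13.5. The sum of 5 choroid plexus genes was 732 to 1084, 808 to 1717 and 3779 to 4447. It did not stand for the list: at E11.5 Ttr rose by 4.22 while Clic6, Folr1 and Otx2 fell, and at E13.5 3 of the 5 rose and 1 fell. Sums of 5 macrophage genes were 82 to 114, 590 to 1184 and 539 to 709, and those of 4 erythroid genes 25802 to 30464, 27388 to 38484 and 13761 to 17065. Of the 5 macrophage genes, 3 rose at E13.5 and 1 fell, at -3.56, so their sum did not stand for the list either. Of the 4 erythroid genes, 3 rose and 1 fell at E11.5, and all 4 fell at E13.5 against E11.5. For E13.5 against E9.5, 1 of the 4 was called lower and 3 were not called, so the lower erythroid sum did not stand for that list. The part of any of these tissues in the changes described was not tested.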

How the data were processed

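RNA of 16 embryo head samples was hybridised to Affymetrix arrays of 45101 probe sets. The deposited values are intensities on a linear scale in whole numbers, to which the authors applied RMA according to the submitters' processing notes (version not given in the sources used here). They were turned to log2 with no further normalization. Of the probe sets, 34945 named 1 gene (18193 genes), 932 several and 9160 none, and 64 were controls. Each gene was represented by its brightest probe set over all arrays. One limma model (limma 3.58.1, R 4.3.3) of all 16 arrays, checked on simulated data, gave the 3 stage comparisons, with Benjamini-Hochberg adjustment over all genes and a threshold of 0.05. The genes, lists and rules were chosen with earlier results of these data known. All 41 genes are accounted for by role, with values by array for those called and at least 2-fold different and for others the text turns on. Of each other list, up to 4 called genes with the largest differences per comparison were named. The Id3 promoter was added to those of the 2-fold genes after its values were seen. Arrays were treated as independent samples. Nothing in the labels says how samples relate to litters, so p-values measure the spread between arrays. The titles of the E13.5 samples carry 1 of 2 prefixes of unstated meaning, with a consensus correlation of 0.601 within a prefix, which was tried as a block. Promoters came from RefSeq (GRCm38.p6).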

Additional observations from a re-analysis of the deposited data

Results flagged for a closer look

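In 6 of 123 stage groups (41 genes at 3 stages), 1 array lay far from the others by Dixon's criterion, and chance flags about 1 in 20 groups. Id2 was at 10.74 on E11.5 sample 36, against 10.45 to 10.48 on the others, and Id1 at 9.43 on E13.5 sample B62E7K, against 9.18 to 9.27. The same sample had the lowest Bmpr1b, at 5.09 against 5.55 to 5.75. Fst was at 6.85 on E13.5 sample B63E7K, against 6.98 to 7.03. Nog was at 3.46 on E13.5 sample B63E5K where the others were at 3.58, and Inhbb at 4.95 on E11.5 sample 51 where the others were at 4.75, both gaps of few whole-number steps.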

How the results depend on the processing

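The counts of called genes moved within narrow ranges when 1 array was left out: 29 to 33 for E11.5 against E9.5, 30 to 32 for E13.5 against E11.5 and 31 to 33 for E13.5 against E9.5, of the 41 genes. The counts at 2-fold or more were 5 to 6, 11 to 15 and 11 to 12, and the genes that differed by the F test 37 to 39. Over quantile normalization, median centring, an offset of 16, a filter on the dimmest 25% of genes, other probe sets, fits of only the 2 stages, a trended and robust variance, array weights, the E13.5 title prefix as a block or 1 prefix alone, and the removal of E9.5 samples 13 and 15, the counts of called genes were 28 to 33, 27 to 32 and 28 to 35. With the mean of all probe sets, 3 genes in place of 5 were called and at least 2-fold different between E11.5 and E9.5. The filter left 39 of the 41 genes. The choice of probe set had the most effect. Of 29 differences of at least 2-fold, 8 turned and 1 was no longer called with the second-brightest probe set. With the mean of all, 2 turned or lost their call, and 0 did so under the alternatives that kept the probe set. The 29 include differences of Bmp2, Gdf10, Gdf11 and Tgfb3, each measured by only 1 probe set. No other choice existed for these, so their values were unable to turn in either alternative. All genes measured in this way were likewise fixed in the counts of called genes, which test the choice only in part. With the second-brightest probe set, the sign turned for E11.5 minus E9.5 in Bmp7 (-0.86), Inhba (0.18), Inhbb (0.33), Tgfb1 (0.05), Bmpr1b (1.10), Acvr2a (-0.02), Smad2 (0.79), Smad3 (-0.36) and Id2 (-0.57). The same choice turned E13.5 minus E11.5 in Bmp7 (-0.14), Inhba (-0.33), Bmpr2 (-0.43), Acvr2b (0.51), Tgfbr2 (-0.42), Tgfbr3 (-0.31), Smad1 (0.57), Smad2 (-0.33), Smad7 (-1.42) and Id2 (1.03). The same choice turned E13.5 minus E9.5 in Bmp5 (-0.03), Bmp7 (-0.99), Inhba (-0.15), Acvr2a (-1.33), Acvr2b (0.27), Tgfbr2 (-0.04), Tgfbr3 (-0.06), Smad1 (1.13), Smad7 (-0.36) and Id2 (0.46). With the mean of all probe sets, the sign turned for E11.5 minus E9.5 in Bmp7 (-0.22), Bmpr1a (-0.08), Bmpr1b (0.29), Acvr2b (0.06), Smad2 (0.20), Smad3 (-0.09) and Id2 (-0.52). The same choice turned E13.5 minus E11.5 in Smad5 (-0.73) and Smad7 (-0.63). The same choice turned E13.5 minus E9.5 in Bmp7 (-0.05), Acvr2a (-0.33) and Smad7 (-0.04). Some of these values are of probe sets near the lower end of the scale, and the cause was not tested. No paired analysis was possible because the stages share no replicate numbers in the labels. Depth is not defined for arrays: the number of arrays and, for Nog and Ltbp2, signal near the lower quartile limit the precision.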
